A study of Mus musculus with 6 samples.

Results

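The chemokine system of sorted mouse haematopoietic stem cells (HSC) was examined as 53 genes, 33 encoding chemokines and 20 encoding their receptors. They were taken by symbol from the array annotation. A gene belonged if its symbol was Ccl, Cxcl, Ccr, Cxcr, Ackr or Xcr followed by a number, or was Cx3cl1, Cx3cr1 or Xcl1, and Ccr3 was left out by the rule. The 53 genes had 85 probe sets with 1 symbol, out of 44991 probe sets and 18186 genes on the table. A gene with several probe sets was represented by the one with the highest mean.

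The groups were HSC of PU.1 knockdown (PU.1 KD) mice and HSC of wildtype (WT) mice, both sorted from bone marrow by flow cytometry. Each group had 3 Affymetrix Mouse Genome 430 2.0 arrays, and each was hybridised with RNA of a pool of 3 animals that had been amplified in 2 rounds, as the labels state. The question set by the design was which genes differ when PU.1, a transcription factor of myeloid and B lymphoid cells encoded by Spi1, is reduced. The way PU.1 was reduced, the strain and age of the mice and the surface markers of the sort were not stated in these sources.

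Chemokines are small secreted proteins that guide the movement of blood cells. They are grouped as CC, CXC, CX3C or XC ligands by the spacing of their first cysteines, and they act through G protein-coupled receptors named in the same way. Atypical receptors bind chemokines without G protein signalling and remove them or present them. In bone marrow, Cxcl12 from stromal cells holds stem cells in place through Cxcr4, while ligands of Cxcr2 draw neutrophils out. Many CC ligands are made by myeloid cells and induced in inflammation.

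Values below are log2 intensities after quantile normalisation, one per pool, and a difference is PU.1 KD minus WT on the log2(value + 16) scale with its standard error (SE) from limma. A probe set is called dim where its mean lies below 6.70, the median of all probe-set means, and 30 of the 53 genes were dim by this measure. Array medians were 81.4 to 89.0 intensity units in PU.1 KD pools and 90.0 to 91.5 in WT pools. Spi1 itself read 8.73, 8.55 and 7.06 in PU.1 KD pools 1, 2 and 3, against 10.13, 9.42 and 10.08 in WT pools 1, 2 and 3. The groups of Spi1 did not overlap, and its adjusted p was 0.503 (limma, Benjamini-Hochberg). Of 18 listed HSC and progenitor markers 16 were measured, and all 16 had means above that median. Neutrophil and granule genes, some of which myeloid progenitors also express, were bright too, with 12 of 13 above the median. Of all 18186 genes, 12009 were above it. Between the groups, 7 of the 16 HSC markers were higher in PU.1 KD pools and 9 lower. At an unadjusted p under 0.05 by limma, 1 was higher (Cd48, 6.25%, against 4.1% of all genes). At the same p, 2 were lower (Tek and Mecom, 12.5%, against 3.52%). WT pool 2 stood apart in these lists, with the lowest summed neutrophil intensity (25370, against 48710 to 63480 in the other 5 pools) and the highest summed HSC marker intensity (24570, against 14290 to 18690). No marker of any cell type list was at the floor of 1 intensity unit on any array. In bulk arrays, fewer cells of a type and less RNA per cell cannot be told apart.

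No chemokine or receptor gene passed the test. At a threshold of 0.05 on the adjusted p of limma, 0 of the 53 genes were called, against 0% of all genes and of all 44991 probe sets. Cxcl2 had the lowest adjusted value of the 53, 0.497. At an unadjusted p under 0.05, 5 of the 53 passed (9.43%, against 7.63% of all genes). Of these 5, 4 were lower in PU.1 KD pools (7.55% of the 53, against 3.52% of all genes) and 1 was higher (1.89%, against 4.1%). The 4 were the ligand genes Cxcl2, Ccl3 and Ccl9 and the receptor gene Cxcr2, and the 1 was the receptor gene Cxcr5. The groups did not overlap for 4 genes (7.55%, against 13.8%), of which 3 were lower (5.66%, against 5.39% of all genes) and 1 was higher (1.89%, against 8.42%). The share of non-overlapping genes was near that of all genes for lower ones and below it for higher ones. The median difference was -0.04 over the 53 genes and 0.02 over all genes, with 23 genes higher (43.4%, against 53.4% of all genes) and 30 lower. With the values as deposited, without normalisation between arrays, 16 were higher and 37 lower. The median difference was then -0.10 over the 53 genes and -0.04 over all genes, as array medians were lower in PU.1 KD pools. The share of all genes that were higher was not taken for this scaling. Counts with the values as deposited, here and below, thus include a shift of all genes.

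The precision differed between genes. The SE of the difference ran from 0.14 to 0.75 with a median of 0.18. For 41 of the 53 genes the 95% interval lay within a 2-fold change in either direction, while for Ccl3, Ccr1, Cxcl14 and others it did not. Of these 41 genes, 18 were above the median probe set and the others were dim. The pseudocount understates folds of dim probe sets, so the intervals of the dim genes cannot exclude a larger change in intensity.

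**Figure D1:**
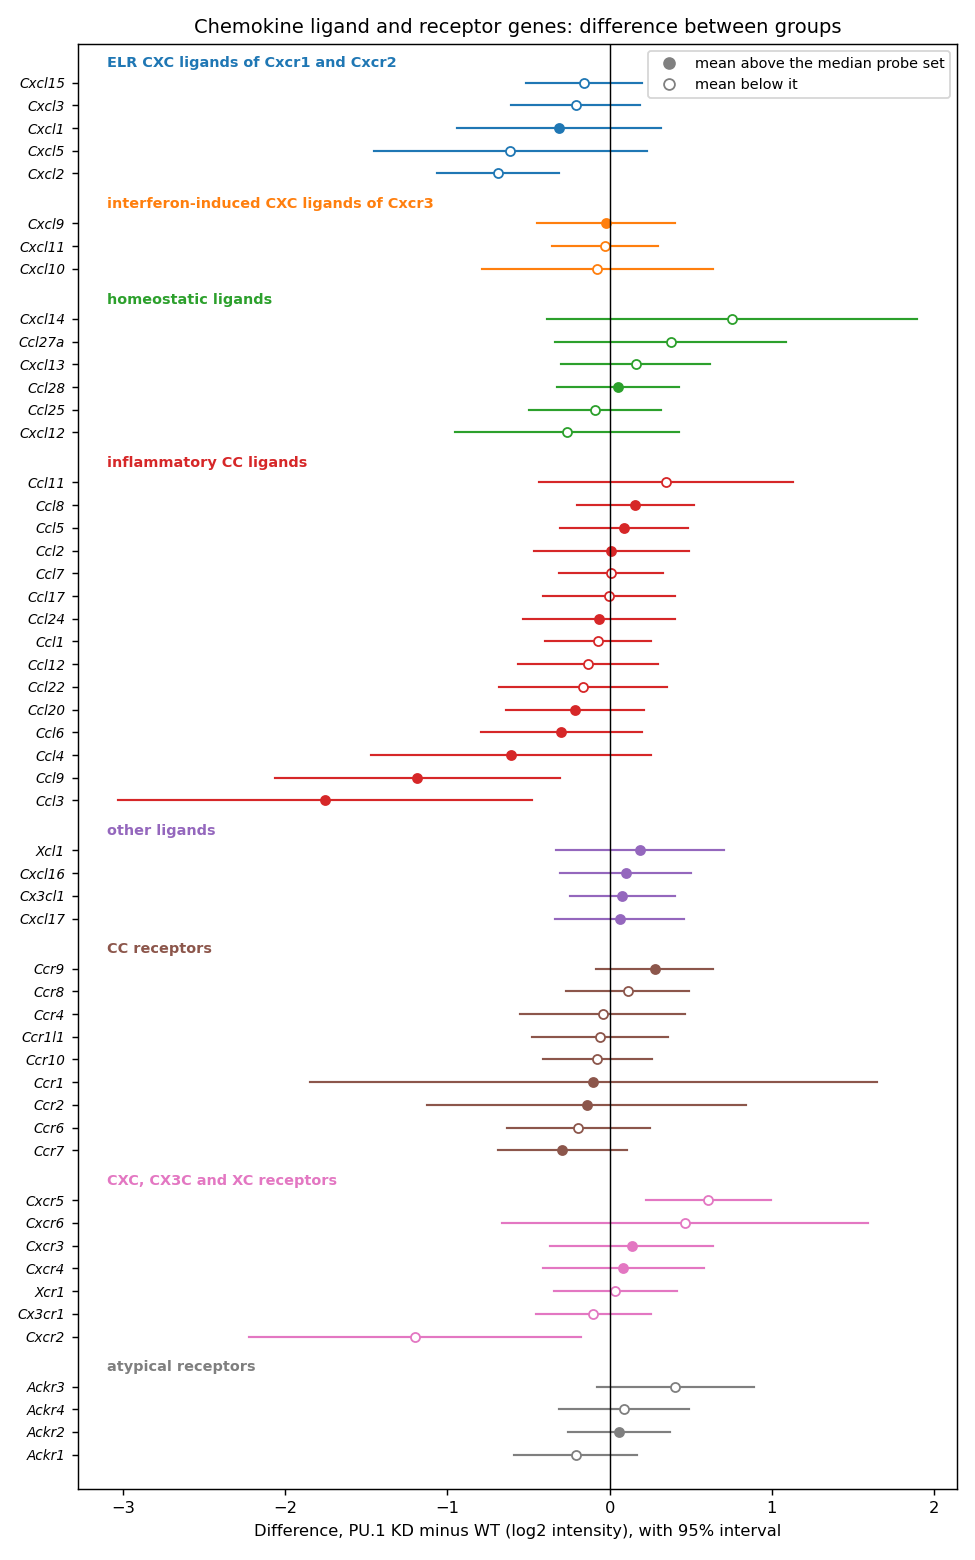
Difference between PU.1 KD and WT pools (log2 intensity, horizontal axis) for all 53 genes, grouped by role, with the 95% interval of the limma fit as a line. Filled points are genes with a mean above the median probe set and open points are dimmer ones. Intervals of 5 genes (Cxcl2, Ccl3, Ccl9, Cxcr2 and Cxcr5) leave out 0, and Ccl3 lies farthest from it at -1.75.

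Among the CC ligands, Ccl3, which encodes the inflammatory chemokine MIP-1 alpha, a ligand of Ccr1, had the lowest difference of all 53 genes. Ccl3 read 8.02, 7.31 and 5.88 in PU.1 KD pools 1, 2 and 3, against 8.24, 9.60 and 8.63 in WT pools 1, 2 and 3. The groups did not overlap, although PU.1 KD pool 1 lay close to WT pool 1. As deposited, the intensity of Ccl3 averaged 134.6 ± 89.3 in PU.1 KD pools and 495.1 ± 281.0 in WT pools (SD, n = 3 each). The difference was -1.75 (SE 0.55, 95% interval -3.03 to -0.48, adjusted p = 0.591 by limma). Without PU.1 KD pool 3, the lowest, it was -1.16.

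Ccl9, a ligand of Ccr1 that mouse myeloid cells make without stimulation, had 2 probe sets with nearly the same difference. On the brighter one, 1417936_at, Ccl9 read 9.79, 9.27 and 8.15 in PU.1 KD pools 1, 2 and 3, against 10.39, 10.00 and 10.38 in WT pools 1, 2 and 3. All WT pools lay within 0.4 log2 units of each other, and PU.1 KD pool 3 was again the lowest. Deposited intensities of Ccl9 averaged 550 ± 252 in PU.1 KD pools and 1235 ± 145 in WT pools (SD, n = 3 each). The difference was -1.19 (SE 0.38, 95% interval -2.06 to -0.31, adjusted p = 0.604 by limma). On the other probe set, 1448898_at, Ccl9 read 6.84, 6.18 and 4.74 in PU.1 KD pools, against 6.86, 7.02 and 7.41 in WT pools. The difference there was -1.18 (SE 0.48), and the groups did not overlap on this probe set either. Without PU.1 KD pool 3 the brighter probe set differed by -0.72.

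Marker lists of other blood cells are given beside these values. Of 14 listed monocyte and macrophage markers 12 were measured, and 0 passed the adjusted threshold. Of the 12, 9 had lower and 3 higher means in PU.1 KD pools, with overlapping summed intensities of 5377 to 7435 in PU.1 KD pools and 6787 to 9842 in WT pools. At an unadjusted p under 0.05 by limma, 3 were lower (25%, against 3.52% of all genes) and 0 higher (0%, against 4.1%). These 3 were Cd14, Ctss and Fcgr1. Their groups did not overlap, and they were the 3 lower markers of the list without overlap (25%, against 5.39% of all genes). PU.1 KD pool 3, lowest for Ccl3 and Ccl9, was also lowest for Spi1, for the summed monocyte list (5377), the dendritic cell list (3017, against 5839 to 7634 in the other pools) and the B lymphoid list (929, against 1677 to 2524). WT pool 2 had the lowest monocyte sum of the WT pools (6787), below that of PU.1 KD pool 1 (7435). It was the highest pool of all for Ccl3 and the lowest WT pool for Ccl9. The part of these cells in the Ccl3 and Ccl9 values was not tested.

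**Figure D2:**
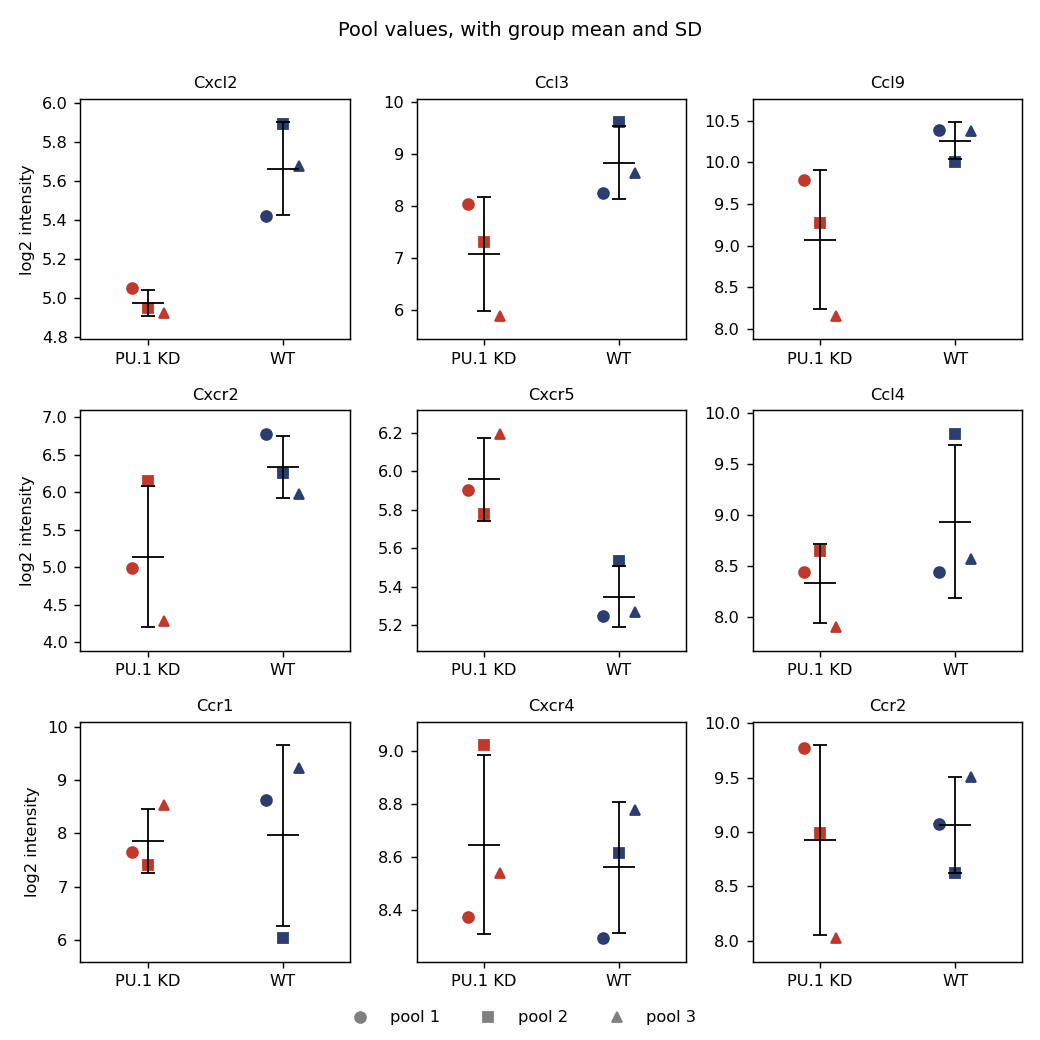
Log2 intensity (vertical axes) of 9 chemokine and receptor genes in the PU.1 KD pools (left of each panel) and the WT pools (right), with pools 1, 2 and 3 as circle, square and triangle, and the group mean with its SD as bars. Ccl3 and Ccl9 are lowest in PU.1 KD pool 3, and Ccr1 is lowest in WT pool 2.

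Ccl4, encoding the inflammatory chemokine MIP-1 beta, read 8.44, 8.65 and 7.90 in PU.1 KD pools 1, 2 and 3, against 8.44, 9.80 and 8.57 in WT pools 1, 2 and 3. WT pool 2 was the highest pool for Ccl4, as it was for Ccl3, and the groups overlapped. The difference of Ccl4 was -0.61 (SE 0.37, adjusted p = 0.784 by limma), and it was -0.18 without WT pool 2. Ccl6, a myeloid CC ligand of mice, differed by -0.30 (SE 0.22) on 1420249_s_at and by -0.75 (SE 0.41) on 1417266_at, and its groups overlapped on both. Ccl5, known as RANTES and made by T and NK cells, read 8.53, 8.45 and 8.81 in PU.1 KD pools 1, 2 and 3, against 8.74, 8.38 and 8.41 in WT pools 1, 2 and 3. The difference of Ccl5 was 0.09 (95% interval -0.30 to 0.48), a range that leaves out a 2-fold change.

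These 5 genes are neighbours on chromosome 11. With members placed in one group where their starts lay within 500 kb of the next, Ccl5, Ccl9, Ccl6, Ccl3 and Ccl4 followed each other in this order, 4 of them lower and 1 higher, with a median difference of -0.61. A second group on chromosome 11 held Ccl2, Ccl7, Ccl11, Ccl12, Ccl8 and Ccl1, most of them monocyte or eosinophil attractants. Its 6 genes differed by -0.14 to 0.35, the highest being Ccl11, with a median of 0.01, and 0 of 6 had an unadjusted p under 0.05. With the values as deposited, the first group kept 4 of 5 genes lower and the second had 4 of 6 lower. No test was made of the gap between the groups.

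**Figure D3:**
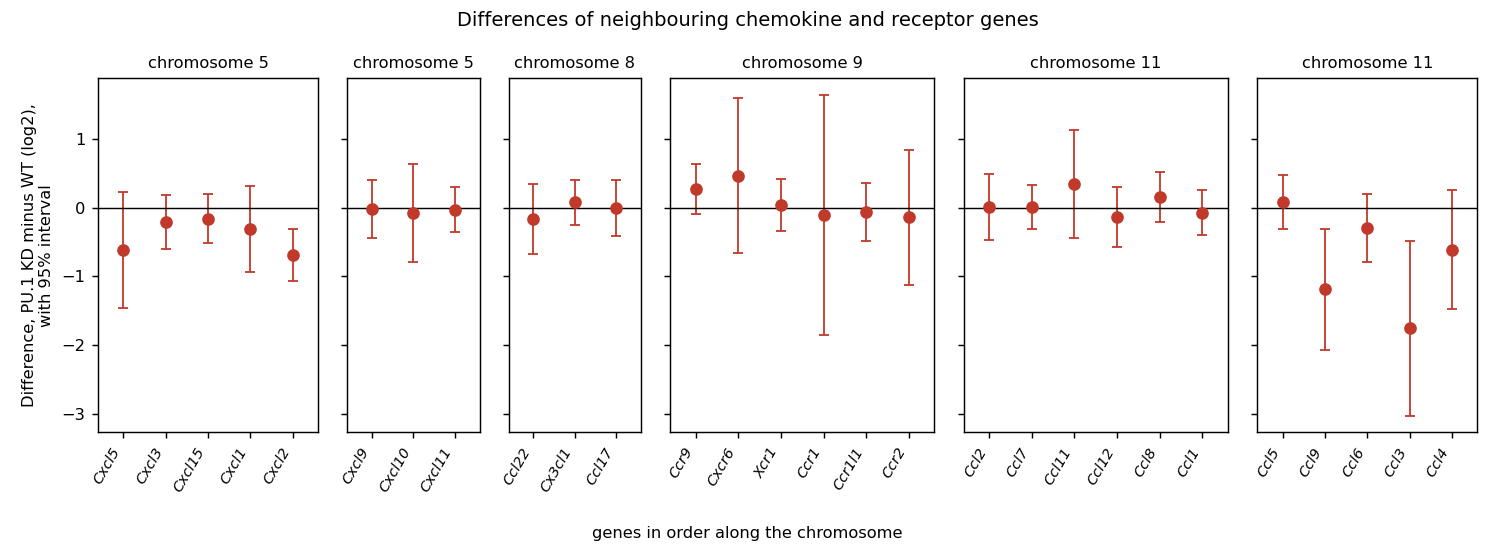
Difference between PU.1 KD and WT pools (log2 intensity, vertical axis, with 95% interval) for neighbouring member genes, in order along chromosomes 5, 8, 9 and 11. The group with Ccl9, Ccl3 and Ccl4 on chromosome 11 has a median of -0.61, and the other chromosome 11 group lies close to 0.

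Over all 15 CC ligand genes classed as inflammatory, 5 were higher and 10 lower, or 3 and 12 with the values as deposited. Ccl3 and Ccl9 were the 2 with an unadjusted p under 0.05 (13.3%, against 7.63% of all genes). Ccl24, an eotaxin that attracts eosinophils, read 9.37, 8.82 and 8.87 in PU.1 KD pools 1, 2 and 3, against 9.24, 8.82 and 9.20 in WT pools 1, 2 and 3. The difference of Ccl24 was -0.06 (SE 0.20), while the means of the eosinophil granule genes Epx and Prg2 were lower in PU.1 KD pools in the same fit. Epx differed by -3.69 and Prg2 by -3.06, neither past the adjusted threshold. Over the whole list of 11 measured eosinophil, basophil and mast cell genes, 7 had higher and 4 lower means, from -3.69 for Epx to 2.05 for the mast cell protease gene Cpa3. At an unadjusted p under 0.05 by limma, 4 were lower (36.4%, against 3.52% of all genes) and 4 higher (36.4%, against 4.1%). The lower ones were Epx, Prg2, Prg3 and Siglecf, and the higher ones Cpa3, Mcpt8, Cma1 and Tpsb2. Ccl20, the ligand of Ccr6, differed by -0.21 (SE 0.18). Ccl8, a monocyte attractant, differed by 0.16 (SE 0.16). The eotaxin gene Ccl11, not named by the rule, was the 1 member whose brightest probe set had arrays at the floor of 1 intensity unit, in 2 of the WT pools, so its difference has no firm size.

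The ELR CXC ligands, named for a glutamate-leucine-arginine motif, attract neutrophils through Cxcr2. The 5 with a Cxcl symbol had lower means in PU.1 KD pools under each scaling tried, and a further ELR ligand, Ppbp, lies outside the symbol rule and is given with the related genes. Their differences ran from -0.69 to -0.16 with a median of -0.31. At an unadjusted p under 0.05 there was 1 of the 5, Cxcl2 (20%, against 7.63% of all genes). Cxcl2, known as MIP-2, read 5.05, 4.95 and 4.92 in PU.1 KD pools 1, 2 and 3, against 5.42, 5.89 and 5.67 in WT pools 1, 2 and 3. The pools of each group lay close together and apart from the other group. The difference was -0.69 (SE 0.16, 95% interval -1.06 to -0.31, adjusted p = 0.497 by limma). The signal of Cxcl2 was weak, however, at 14.1 to 16.7 intensity units as deposited in PU.1 KD pools and 27.4 to 44.0 in WT pools, all below the array medians, so this fold depends on the pseudocount. With a pseudocount of 1 the difference was -1.11 and with 64 it was -0.32. Cxcl5, an ELR ligand of epithelial and myeloid cells, was also dim, with a difference of -0.61 (SE 0.36) and groups that overlapped. The 5 genes lie next to each other on chromosome 5. Cxcl1 and Cxcl3, named to complete the group, differed by -0.31 (SE 0.27) and -0.21 (SE 0.17), and Cxcl15 by -0.16 (SE 0.15). The 3 probe sets of Cxcl1 did not share a sign, with differences of -0.31, -0.27 and 0.02. Cxcl1 was the 1 gene of the 5 above the median probe set, on 1441855_x_at only, and its other probe sets were dim. The shared sign of the 5 genes thus rests largely on dim signals.

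Promoter sequences of the 3 ligand genes of smallest p are shown, since these 3 were lower together, and that of Ccl8, which differed little, is set beside them. PU.1 binds ETS sites, and the exact word GAGGAAG was taken as a form of such a site. It was searched on both strands in the 250 bases before the start site, together with the TATA word TATAAA, using RefSeq promoters of GRCm38.p6. Other forms of either word were not searched, so a window without them may still hold an ETS site or a TATA box. Matches were counted at any place in the window, so a TATAAA match need not be a TATA box. The window of Cxcl2 is chr5:90903649-90903898 on the plus strand and that of Ccl3 is chr11:83649379-83649628 on the minus strand. The window of Ccl9 is chr11:83578637-83578886 on the minus strand and that of Ccl8 is chr11:82114935-82115184 on the plus strand. Capitals mark matches to either word on either strand, and each run ends at the base before the start.
Cxcl2: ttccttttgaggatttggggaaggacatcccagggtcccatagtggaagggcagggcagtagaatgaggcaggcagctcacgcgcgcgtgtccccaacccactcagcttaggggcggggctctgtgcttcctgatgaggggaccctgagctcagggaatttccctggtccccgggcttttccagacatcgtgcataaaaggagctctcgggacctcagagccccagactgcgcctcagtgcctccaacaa
Ccl3: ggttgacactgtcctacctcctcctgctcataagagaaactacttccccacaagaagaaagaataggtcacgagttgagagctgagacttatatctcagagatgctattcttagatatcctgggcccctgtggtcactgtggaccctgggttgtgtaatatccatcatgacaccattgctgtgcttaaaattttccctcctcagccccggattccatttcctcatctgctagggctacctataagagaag
Ccl9: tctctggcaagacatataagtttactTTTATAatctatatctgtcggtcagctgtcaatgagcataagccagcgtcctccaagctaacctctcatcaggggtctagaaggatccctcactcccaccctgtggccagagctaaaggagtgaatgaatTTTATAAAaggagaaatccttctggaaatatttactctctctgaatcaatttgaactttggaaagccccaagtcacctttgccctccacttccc
Ccl8: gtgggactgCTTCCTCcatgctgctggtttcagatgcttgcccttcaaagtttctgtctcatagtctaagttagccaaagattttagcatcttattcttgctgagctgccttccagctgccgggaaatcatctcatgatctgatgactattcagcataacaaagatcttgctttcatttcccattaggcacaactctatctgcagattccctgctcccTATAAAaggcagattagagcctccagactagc
Cxcl2 and Ccl3 hold neither exact word in this window, and Ccl8 holds each word once. Ccl9 holds TATAAA at 3 places, counting both strands and overlaps, the farthest beginning 224 bases before the start. Of the 53 genes 40 were found in the table, with 44 promoters. GAGGAAG was present in 11.4% of these 44 promoters and in 10.6% of all 32851, and TATAAA in 31.8% and 12.4%. The genes with GAGGAAG were Ccl20, Ccl8, Ccr6, Cx3cl1 and Cxcr3, whose differences ran from -0.21 to 0.16.

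Cxcl9, Cxcl10 and Cxcl11, the interferon-induced ligands of Cxcr3, had differences of -0.02, -0.08 and -0.03 on their brightest probe sets. The other probe set of Cxcl9 differed by 0.16 (SE 0.46). That of Cxcl11 differed by 0.35 (SE 0.18), with all PU.1 KD pools above all WT pools, though pool 2 of both groups read 5.82. Cxcl10 read 5.81, 7.08 and 6.05 in PU.1 KD pools 1, 2 and 3, against 6.44, 6.39 and 6.34 in WT pools 1, 2 and 3. The WT pools of Cxcl10 were nearly equal, and the PU.1 KD pools lay on both sides of them, so its sign is not settled. It turned to 0.03 with array weights.

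Homeostatic ligands, which are made by tissues without inflammation, included Cxcl12, the niche ligand of Cxcr4. Cxcl12 read 6.31, 5.92 and 6.07 in PU.1 KD pools 1, 2 and 3, against 6.17, 5.86 and 7.06 in WT pools 1, 2 and 3. WT pool 3 stood above the other 5 pools, and it also had the highest summed intensity of 13 stromal and endothelial markers (7505, against 1518 to 6399 in the others). Without WT pool 3 the difference of Cxcl12 was 0.09, in place of -0.26 (SE 0.30) with all pools, and the 3 probe sets of Cxcl12 differed by -0.26, 0.20 and -0.22. Cxcl14, a ligand of epithelial and stromal cells, read 6.77, 5.53 and 6.70 in PU.1 KD pools 1, 2 and 3, against 5.66, 4.62 and 6.45 in WT pools 1, 2 and 3. Pool 2 was the lowest of both groups, as it was for the stromal list, whose summed intensity was 2100 in PU.1 KD pool 2 and 1518 in WT pool 2. Cxcl14 had the highest difference of the 53 genes, 0.76 (SE 0.49, adjusted p = 0.797 by limma), and it was 0.27 without WT pool 2 and 0.39 as the mean of its 2 probe sets. The second probe set of Cxcl14 differed by 0.02. Ccl27a, a skin ligand of Ccr10, differed by 0.38 (SE 0.31). The part of stromal cells in these values was not tested.

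Xcl1, which encodes lymphotactin of T and NK cells, read 10.49, 9.74 and 10.21 in PU.1 KD pools 1, 2 and 3, against 10.19, 9.71 and 9.98 in WT pools 1, 2 and 3. Its pools overlapped, with a difference of 0.19 (95% interval -0.33 to 0.70). Cx3cl1, a membrane-bound ligand, differed by 0.08 (SE 0.14), which turned to -0.01 with the values as deposited. The other probe sets of Cx3cl1 differed by 0.07, 0.27 and -0.13. Cxcl16, the ligand of Cxcr6, differed by 0.10 (SE 0.17) on 1418718_at and by -0.33 (SE 0.16) on 1449195_s_at, and on the dimmer one all PU.1 KD pools lay below all WT pools.

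The receptors were as many higher as lower, 10 each, and with the values as deposited 8 were higher and 12 lower. At an unadjusted p under 0.05 there was 1 gene in each direction (10% of the 20, against 7.63% of all genes). Cxcr4, which holds stem cells in the marrow, read 8.38, 9.03 and 8.54 in PU.1 KD pools 1, 2 and 3, against 8.29, 8.62 and 8.78 in WT pools 1, 2 and 3. The groups of Cxcr4 overlapped throughout. The difference of 0.08 had a 95% interval of -0.41 to 0.58 (adjusted p = 0.955 by limma), so a 2-fold change in either direction lay outside it. Ackr3, the atypical receptor that scavenges Cxcl12, was close to background, at 14.7 ± 8.98 intensity units in PU.1 KD pools and 6.93 ± 1.13 in WT pools (SD, n = 3 each), and differed by 0.40 (SE 0.21).

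Cxcr2, the neutrophil receptor for ELR ligands, read 4.98, 6.15 and 4.28 in PU.1 KD pools 1, 2 and 3, against 6.78, 6.26 and 5.98 in WT pools 1, 2 and 3. PU.1 KD pools 1 and 3 lay below every WT pool, while PU.1 KD pool 2 lay above WT pool 3, so the groups overlapped. The difference was -1.20 (SE 0.44, 95% interval -2.22 to -0.17, adjusted p = 0.663 by limma), and it was -0.77 without PU.1 KD pool 3. As deposited, Cxcr2 had 2.77 to 53.6 intensity units in PU.1 KD pools and 48.9 to 96.5 in WT pools, on a dim probe set. With a pseudocount of 1 the difference was -2.03 and with 64 it was -0.59. Of the 13 measured neutrophil and granule genes, 10 had higher and 3 lower means in PU.1 KD pools, with summed intensities of 48710 to 63160 in PU.1 KD pools and 25370 to 63480 in WT pools.

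Ccr1, a receptor of monocytes and neutrophils for Ccl3, Ccl6 and Ccl9, varied most among pools. It read 7.65, 7.40 and 8.53 in PU.1 KD pools 1, 2 and 3, against 8.63, 6.03 and 9.22 in WT pools 1, 2 and 3. WT pool 2 was the lowest of all, the same pool that was lowest for the neutrophil list. The dimmer probe set of Ccr1 was at the floor in PU.1 KD pool 1 and differed by -0.57 (SE 0.63). On the brighter one the difference of Ccr1 was -0.10 (SE 0.75) with all pools and -1.07 without WT pool 2, and no direction can be given. Cx3cr1, the receptor of Cx3cl1 on monocytes, was dim in all pools and differed by -0.10 (SE 0.15), and by 0.03 (SE 0.20) on its other probe set.

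Ccr2, the monocyte receptor for Ccl2, read 9.77, 8.99 and 8.02 in PU.1 KD pools 1, 2 and 3, against 9.07, 8.62 and 9.51 in WT pools 1, 2 and 3 on its brightest probe set, 1421186_at. The groups overlapped there, with a difference of -0.14 (SE 0.42). Another probe set of Ccr2, 1460067_at, read 7.07, 7.03 and 7.36 in PU.1 KD pools, against 6.44, 6.40 and 6.64 in WT pools. On that one all PU.1 KD pools were higher, with a difference of 0.66 (SE 0.16, adjusted p = 0.497 by limma), and the other 2 differed by 0.12 and -0.03. The probe sets of Ccr2 thus gave different answers, and which transcripts each one detects was not analysed here.

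Ccr9, the receptor for Ccl25 that guides lymphoid progenitors to the thymus and T cells to the gut, had 5 probe sets, and all 5 had higher means in PU.1 KD pools. On the brightest, 1436065_at, Ccr9 read 9.18, 8.87 and 9.08 in PU.1 KD pools 1, 2 and 3, against 8.66, 8.69 and 8.95 in WT pools 1, 2 and 3. The groups overlapped by 1 pool, and the difference was 0.28 (SE 0.16, adjusted p = 0.769 by limma). On 1421920_a_at it read 7.25, 7.20 and 7.71 in PU.1 KD pools, against 6.17, 6.76 and 6.47 in WT pools. That difference was 0.92 (SE 0.21, adjusted p = 0.486 by limma). On 1421919_a_at it read 5.74, 5.60 and 5.89 in PU.1 KD pools, against 4.76, 5.02 and 5.15 in WT pools, a difference of 0.77 (SE 0.16, adjusted p = 0.458 by limma). The groups did not overlap on these 2 probe sets. The remaining 2 differed by 1.45 (SE 0.51) on 1427419_x_at and 0.57 (SE 0.34) on 1442758_at, with overlap on both. With the mean over the 5 probe sets in place of the brightest, Ccr9 differed by 0.80, so its size depended on the probe set chosen while its sign did not. The ligand gene Ccl25 differed by -0.09 (SE 0.17), and by 0.08 (SE 0.135) on its other probe set.

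**Figure D4:**
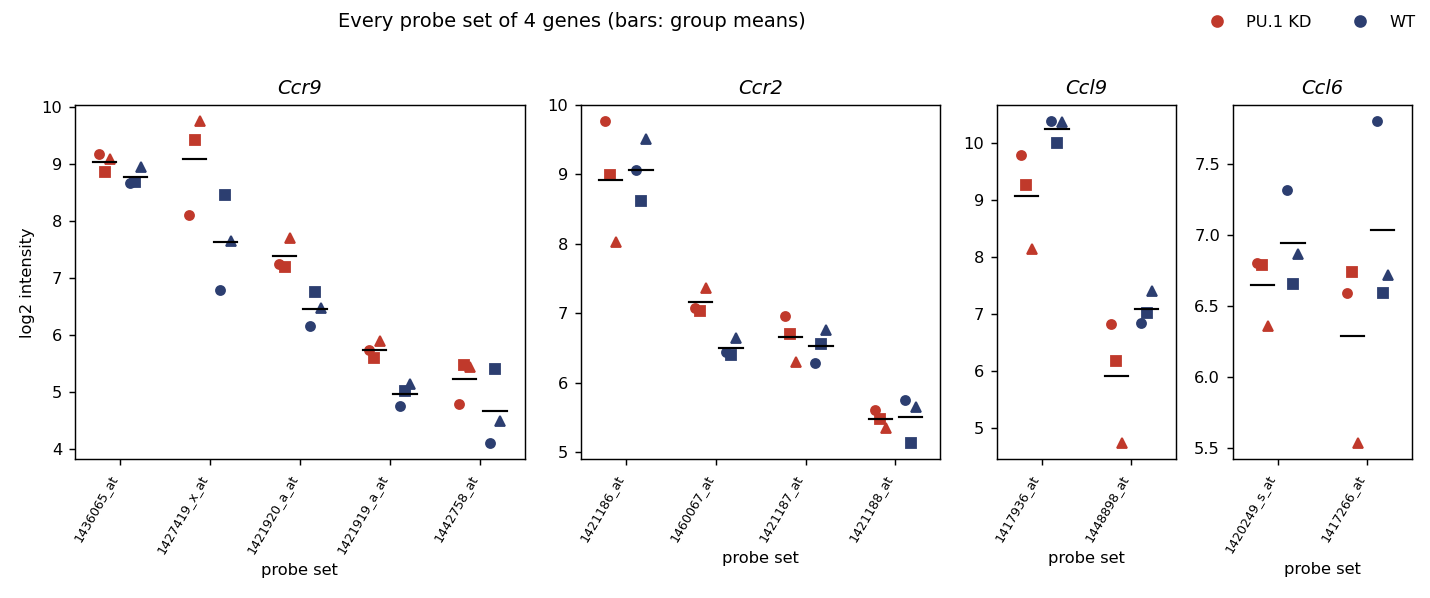
Log2 intensity (vertical axes) of every probe set of Ccr9, Ccr2, Ccl9 and Ccl6, with PU.1 KD pools left and WT pools right at each probe set, pools 1, 2 and 3 as circle, square and triangle, and bars at the group means. All 5 probe sets of Ccr9 have higher means in PU.1 KD pools, the 4 of Ccr2 do not share a sign, and both of Ccl9 are lower.

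Over all 85 probe sets of the 53 genes, 5 were higher and 5 lower at an unadjusted p under 0.05, against 3.78% and 3.33% of all probe sets. The groups did not overlap on 6 that were higher and 6 that were lower, against 7.59% and 5.26% of all probe sets. Of the 20 genes with several probe sets, 8 had all of them on the same side of 0.

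Cxcr5, the receptor that brings B cells to Cxcl13 in lymphoid follicles, was the 1 gene higher at an unadjusted p under 0.05. Cxcr5 read 5.90, 5.78 and 6.20 in PU.1 KD pools 1, 2 and 3, against 5.25, 5.53 and 5.27 in WT pools 1, 2 and 3. The groups did not overlap, at a dim level of 37.7 to 57.9 intensity units in PU.1 KD pools and 22.4 to 30.4 in WT pools as deposited. The difference was 0.61 (SE 0.17, 95% interval 0.22 to 1.00, adjusted p = 0.545 by limma). B lymphoid markers did not share this sign, with 3 of 9 higher and 6 lower, and summed intensities of 929 to 1993 in PU.1 KD pools and 1977 to 2524 in WT pools. Of 13 measured T and NK markers, 10 were higher and 3 lower. At an unadjusted p under 0.05 by limma, 3 B markers were lower (33.3%, against 3.52% of all genes). At the same p, 2 T and NK markers were higher (15.4%, against 4.1%). The part of these cells in the values of Cxcr5, Ccr9, Xcl1 and Ccl5 was not tested. Ccr7, which guides dendritic cells and T cells to lymph nodes, differed by -0.29 (SE 0.17), with overlapping groups. Cxcr3, the receptor of effector T cells for Cxcl9 and Cxcl10, differed by 0.14 (SE 0.22). Ackr1, an atypical receptor known from red cells and venules as the Duffy antigen, read 6.49, 6.57 and 6.66 in PU.1 KD pools, against 7.01, 6.81 and 6.53 in WT pools, a difference of -0.21 (SE 0.16).

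The signalling genes downstream of chemokine receptors were taken from a list of 43, of which 42 were measured. By limma 0 of the 42 passed the adjusted threshold, and at an unadjusted p under 0.05 there were 6 lower (14.3%, against 3.52% of all genes) and 1 higher (2.38%, against 4.1%). The groups did not overlap for 9 that were lower (21.4%, against 5.39%) and 1 that was higher (2.38%, against 8.42%). The median difference was -0.06, with 17 higher and 25 lower, and 13 and 29 with the values as deposited. Those of smallest p among the lower ones were Grk3, a kinase that desensitises receptors including Cxcr4 (-1.22, SE 0.15), and 3 regulators that speed the switching-off of G proteins, Rgs19 (-0.64, SE 0.14), Rgs2 (-0.67, SE 0.17) and Rgs10 (-1.27, SE 0.34). Grk3 had the smallest adjusted p of the list, 0.203. Its values were 7.05, 7.28 and 6.93 in PU.1 KD pools, against 8.21, 8.41 and 8.31 in WT pools and the groups did not overlap. The other 2 probe sets of Grk3 differed by -1.02 (SE 0.26) and -0.30 (SE 0.29). Higher means were found for Rhoh, a gene of haematopoietic cells (0.59, SE 0.20), Elmo1, a partner of Dock proteins in Rac activation (0.35, SE 0.20), and the G protein subunit genes Gng11 (0.31, SE 0.18) and Gnb2 (0.22, SE 0.17). The inhibitory subunit gene Gnai2, through which most chemokine receptors signal, averaged 11.92 ± 0.10 in PU.1 KD pools and 11.96 ± 0.11 in WT pools (SD, n = 3 each).

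Of 12 further genes that encode chemokines, receptors or modifying proteins under other names, 5 were higher and 7 lower. At an unadjusted p under 0.05 there was 1 (8.33%, against 7.63% of all genes). This was Cmtm3 of a chemokine-like family, lower by 0.73 log2 units (SE 0.30) and named after its value was seen. The largest difference was that of Ppbp, which encodes the platelet chemokine Cxcl7, another ELR CXC ligand of Cxcr2. Ppbp read 9.95, 5.30 and 9.87 in PU.1 KD pools 1, 2 and 3, against 11.31, 10.32 and 11.26 in WT pools 1, 2 and 3, a difference of -2.59 (SE 1.13, adjusted p = 0.708 by limma). No pools overlapped between the groups, and PU.1 KD pool 2 lay far below the other 5 pools. Pf4, the platelet chemokine Cxcl4, differed by -1.12 (SE 0.54) with overlapping groups and was also lowest in PU.1 KD pool 2. That pool had the lowest summed intensity of 11 megakaryocyte markers as well, which was 2727 to 5307 in PU.1 KD pools and 4695 to 10750 in WT pools. Of the 11 markers, 9 had lower and 2 higher means in PU.1 KD pools, and 0 passed the adjusted threshold. At an unadjusted p under 0.05 by limma, 6 were lower (54.5%, against 3.52% of all genes). The part of megakaryocytes in the Ppbp and Pf4 values was not tested. Cd74, a receptor of Mif, differed by -0.88 (SE 0.56), with overlapping groups. Dpp4, the protease that inactivates Cxcl12, read 7.64, 7.66 and 6.57 in PU.1 KD pools, against 7.57, 8.78 and 7.99 in WT pools, and its groups overlapped. Mif, an alternative ligand of Cxcr4, read 12.13, 12.07 and 11.94 in PU.1 KD pools, against 11.77, 11.76 and 11.74 in WT pools, a difference of 0.29 (SE 0.13, adjusted p = 0.717 by limma). Ppbp, Pf4, Cd74, Dpp4 and Mif were also chosen after their values were seen.

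The pools differed in where they lay for the 53 genes. PU.1 KD pool 3 was the lowest pool for 9 of the 23 brighter genes, WT pool 2 for 7 and WT pool 1 for 4. PU.1 KD pool 1 was the highest for 9 of the 23 and WT pool 3 for 6. Leaving out 1 pool at a time, the genes lower at an unadjusted p under 0.05 numbered 3 to 5 and the higher ones 1 to 4, and 0 of the 53 passed adjustment without any of the 6 pools. Shares of all genes at this p are not given for these fits. With 2 pools against 3, groups are apart more often. Without WT pool 2 they did not overlap for 9 lower genes (17%, against 12.5% of all genes) and 2 higher ones (3.77%, against 16.1%). Without PU.1 KD pool 2 they did not overlap for 7 lower genes (13.2%, against 10.1%) and 7 higher ones (13.2%, against 14.3%).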

How the data were processed

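Per the labels, RNA of sorted bone marrow HSC was amplified in 2 rounds and hybridised to 1-colour Affymetrix arrays, with 3 pools of 3 animals per group. The deposited table holds the authors' processed intensity values on a linear scale, and their software, background correction and scaling were not stated in these sources. No counts exist, and the number of arrays limits the precision.

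A floor of 1 and a pseudocount of 16 were applied before taking log2, which understates folds of dim probe sets. Array medians on that scale spanned 6.61 to 6.75, more than the limit of 0.1, and arrays were quantile normalised. Each probe set was tested two-sided with lmFit and eBayes (limma 3.58.1, R 4.3.3; 7.82 degrees of freedom), with Benjamini-Hochberg adjustment over 44991 probe sets and a threshold of 0.05. On simulated data the fit recovered 29% of 100 planted 2-fold changes and 76% of 100 planted 4-fold changes, with 5 unplanted ones called. Many true 2-fold changes could thus be missed, and the simulated spread may differ from that of these arrays. Of the probe sets, 34921 had 1 symbol, 930 several and 9140 none. Of those with 1 symbol, 34717 were found by gene ID in the RefSeq table of GRCm38.p6. Figures used Python 3.11.15 and matplotlib 3.10.9.

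The members, gene lists, roles and alternatives were chosen with earlier results of these data known. Named genes were the 6 brighter and 4 dimmer members of smallest p per direction, the 4 ligands and 4 receptors of highest mean, and 15 known from blood cells, 28 in all. Of the signalling list, 4 per direction were named. Markers covered HSC, monocyte and macrophage, neutrophil, eosinophil, basophil and mast, megakaryocyte, B, T and NK, dendritic, erythroid, and stromal and endothelial cells. Median differences of lists that are not given above were -1.29 for 11 megakaryocyte genes, 0.32 for 13 T and NK genes, 0.02 for 8 erythroid genes and 0.10 for 11 eosinophil, basophil and mast cell genes. Genes were placed by RefSeq order, and the promoter word TATAAA was added after the values were seen. The labels do not say that the pool numbers 1 to 3 pair the groups, so the main fit had no block. Deviations of same-numbered pools correlated at 0.18, 0.06 and -0.04, which does not settle whether they were paired.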

Additional observations from a re-analysis of the deposited data

How the results depend on the processing

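Among the 53 genes, 0 passed adjustment in all 16 alternatives, which were other scalings, pseudocounts of 1 and 64, a filter at the 40th percentile, eBayes with trend or robust, array weights, the pool number as a block, the mean over a gene's probe sets, and each pool left out. Over all probe sets, 0 to 2 were called with a pool left out and 0 otherwise. Ccl3, Ccl9, Cxcl2, Cxcr2, Cxcr5 and Ccr9 kept their sign in each alternative that tested them; the filter removed Cxcl2, Cxcr2 and Cxcr5. Genes lower at an unadjusted p under 0.05 numbered 4, 2 with the filter, 6 with the replicate block and 3 to 5 with a pool left out. Higher ones numbered 1, 0 with the filter, 2 with the replicate block, 2 with the mean over probe sets and 1 to 4 with a pool left out. Shares of all genes at this p are given for the main fit only, so the counts of the alternatives have no share to be read against. Non-overlapping lower genes numbered 3, 5 with the mean over probe sets and 3 to 9 with a pool left out. Non-overlapping higher genes numbered 1, 0 with the filter, 3 with arrays centred on medians or the mean over probe sets, and 2 to 7 with a pool left out, when 12.6% to 16.1% of all genes were apart and higher and 8.92% to 12.5% apart and lower. The labels do not say whether the numbers pair the pools, so the block is a variant and not the main fit. The median difference of the 53 ran from -0.10 to 0.058 with a pool left out. Signs turned for Cx3cl1 with the values as deposited (-0.0073), Cxcl10 with array weights (0.031), and Ccr2 (0.15) and Cxcl16 (-0.11) with the mean over probe sets. With a pool left out they turned for Ccr1 (-1.07 to 0.53), Ccr2 (-0.57 to 0.31), Cxcl10 (-0.46 to 0.18), Cxcl12 (-0.51 to 0.086), Ccl24 (-0.24 to 0.035), Cxcr4 (-0.10 to 0.22), Cxcr3 (-0.10 to 0.27), Ccl5 (-0.018 to 0.20), Cxcl16 (-0.059 to 0.20), Cx3cr1 (-0.18 to 0.0088) and Cx3cl1 (-0.0074 to 0.13). The cause was not tested. Of the 53 genes, 30 were dim, Cxcl2, Cxcr2, Cxcr5 and Ackr3 among them, and signal over background limits these.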
